A study of Mus musculus with 2 samples.

Results

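The genes described here are 10 members of a group of neuronal surface proteins that have forms attached to the membrane by a glycosylphosphatidylinositol (GPI) anchor: Thy1, Prnp, Ncam1, Cdh13, Nrn1, Mdga1, Mdga2, Ntng1, Ntng2 and Rtn4rl1. They were chosen by name from the 30223 genes of the deposited table, and all 10 were found in it. The study compared hippocampal cells of wild-type control mice with cells of mice homozygous for a Pigv341E knock-in, both of the strain C57Bl.6/J, by droplet single-cell RNA sequencing. Each genotype was 1 library made from the pooled cells of 4 mice (8 hippocampi), dissociated mechanically in the cold, and the pair was sequenced on 1 lane. The labels give no age, sex or treatment. With 1 library per genotype there is no replicate check, no test was possible, and the effects of genotype and of library cannot be told apart. Each pair of values below gives the wild-type library first and the knock-in library next.

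A GPI anchor is a glycolipid that is built in the endoplasmic reticulum and transferred to the end of a protein, which it then holds on the outer face of the cell membrane. Pigv encodes a mannosyltransferase of that synthesis, so the anchor, and not the messenger RNA of its clients, is the direct product of the pathway. In brain many adhesion molecules, axon guidance cues and synapse organisers carry such an anchor, and several of them, Ncam1 among them, also exist as transmembrane isoforms. The values here are per gene and do not separate isoforms.

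The table held 7094 wild-type and 8836 knock-in cells, which were grouped into 36 clusters. By markers, 24 clusters were named. Their 14 classes of 50 or more cells per library, 8 neuronal and 6 others, are compared here. A class name such as "astrocyte" stands for astrocyte-like, since only marker transcripts give it. The level of a gene in a class is its share of all values summed over those cells, per 10000. The values were depth-corrected by the authors, so the depth of sequencing is unknown. The median cell had 3122 and 3736 detected genes and a median of 0.123% and 0.219% of its values from mitochondrially encoded genes. A total of 28 cell barcodes occurred in both libraries. Pigv itself had a level of 0.0886 and 0.10 per 10000 and was above 0 in 6.37% and 7.89% of cells. The edited allele cannot be seen in gene-level values, so Pigv checks no label.

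The members differ greatly in genomic size, which is given because droplet reads can come from introns as well as exons. On GRCm38 (GENCODE M21), Thy1 spans 5.2 kb (chr9:44043384-44048579, plus strand) and Nrn1 9.77 kb (chr13:36725361-36735131, minus strand). Cdh13 spans 1041 kb (chr8:118283733-119324921, plus strand) and Mdga2 756 kb (chr12:66466060-67222549, minus strand). Ntng1 spans 364 kb (chr3:109780040-110144011, minus strand) and Ncam1 297 kb (chr9:49502136-49798925, minus strand). Mdga1 spans 142 kb (chr17:29827949-29970087, minus strand), Rtn4rl1 74.0 kb (chr11:75193783-75267769, plus strand), Ntng2 58.5 kb (chr2:29194541-29253005, minus strand) and Prnp 28.5 kb (chr2:131909928-131938429, plus strand). Annotated genes overlap 8 of them: Nrn1 shares its span with Fars2, Prnp with Prn, Ntng2 with 6530402F18Rik, and Ncam1, Cdh13, Mdga1, Mdga2 and Ntng1 with less characterised loci. Whether counting used the strand is not given in the sources used here, so reads of these partners may be part of a member's value. Levels are compared within a gene across cells and not between genes.

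The 250 bases before the RefSeq transcription start (GRCm38.p6) were found for 5 members. Those of Ntng1, Ntng2 and Mdga1 overlap annotated exons of longer transcripts. The windows of Prnp and Mdga2 overlap none and are shown because these genes, although listed as neuronal, had levels in astrocytes and mature oligodendrocytes above those of most neuronal classes, as described below. Capitals mark CG dinucleotides, 5′ to 3′ on the gene's strand, for chr2:131909678-131909927 (plus) and chr12:67222550-67222799 (minus).
Prnp: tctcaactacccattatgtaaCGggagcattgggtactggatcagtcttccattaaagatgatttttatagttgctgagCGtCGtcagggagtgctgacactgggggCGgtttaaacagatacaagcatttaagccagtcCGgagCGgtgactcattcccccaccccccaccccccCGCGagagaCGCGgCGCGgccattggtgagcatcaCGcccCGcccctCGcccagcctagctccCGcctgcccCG
Mdga2: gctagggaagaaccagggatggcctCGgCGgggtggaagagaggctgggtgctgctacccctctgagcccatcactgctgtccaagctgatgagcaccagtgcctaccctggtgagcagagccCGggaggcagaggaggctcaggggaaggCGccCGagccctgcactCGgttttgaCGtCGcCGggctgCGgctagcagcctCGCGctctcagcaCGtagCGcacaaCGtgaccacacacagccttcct
Prnp had 17 CG dinucleotides in its window and Mdga2 had 15, against a median of 6 over 32851 RefSeq promoter windows of that length. The windows of Ntng1 and Mdga1 had 25 and 21, and that of Ntng2 had 4. The GC box letters GGGCGG, or CCGCCC on the other strand, occurred 2 times in the Prnp window, 1 time each in those of Ntng1 and Mdga1 and not in those of Mdga2 and Ntng2, and 32.7% of all windows held them. The E-box letters CAGATG, or CATCTG on the other strand, occurred 1 time in the Ntng2 window and in none of the other 4, and 14.4% of all windows held them. These matches are descriptions of sequence and not of binding.

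The label "neuronal" held for part of the list only. Mdga1 and Nrn1 had their highest levels in hippocampal pyramidal or granule neurons, Ntng1 in subiculum or cortex neurons and Ntng2 in Cajal-Retzius cells. Ncam1 was highest in mature oligodendrocytes, Cdh13 in oligodendrocyte precursors, Prnp in astrocytes and Rtn4rl1 in microglia, each in both libraries. The highest class was not the same in the libraries for Thy1, Nrn1 and Mdga2. The order of the 14 classes was alike between libraries, with Spearman rho between 0.754 (Thy1) and 0.991 (Cdh13 and Mdga2), values that share the cells' classification and are given as a description.

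**Figure D1:**
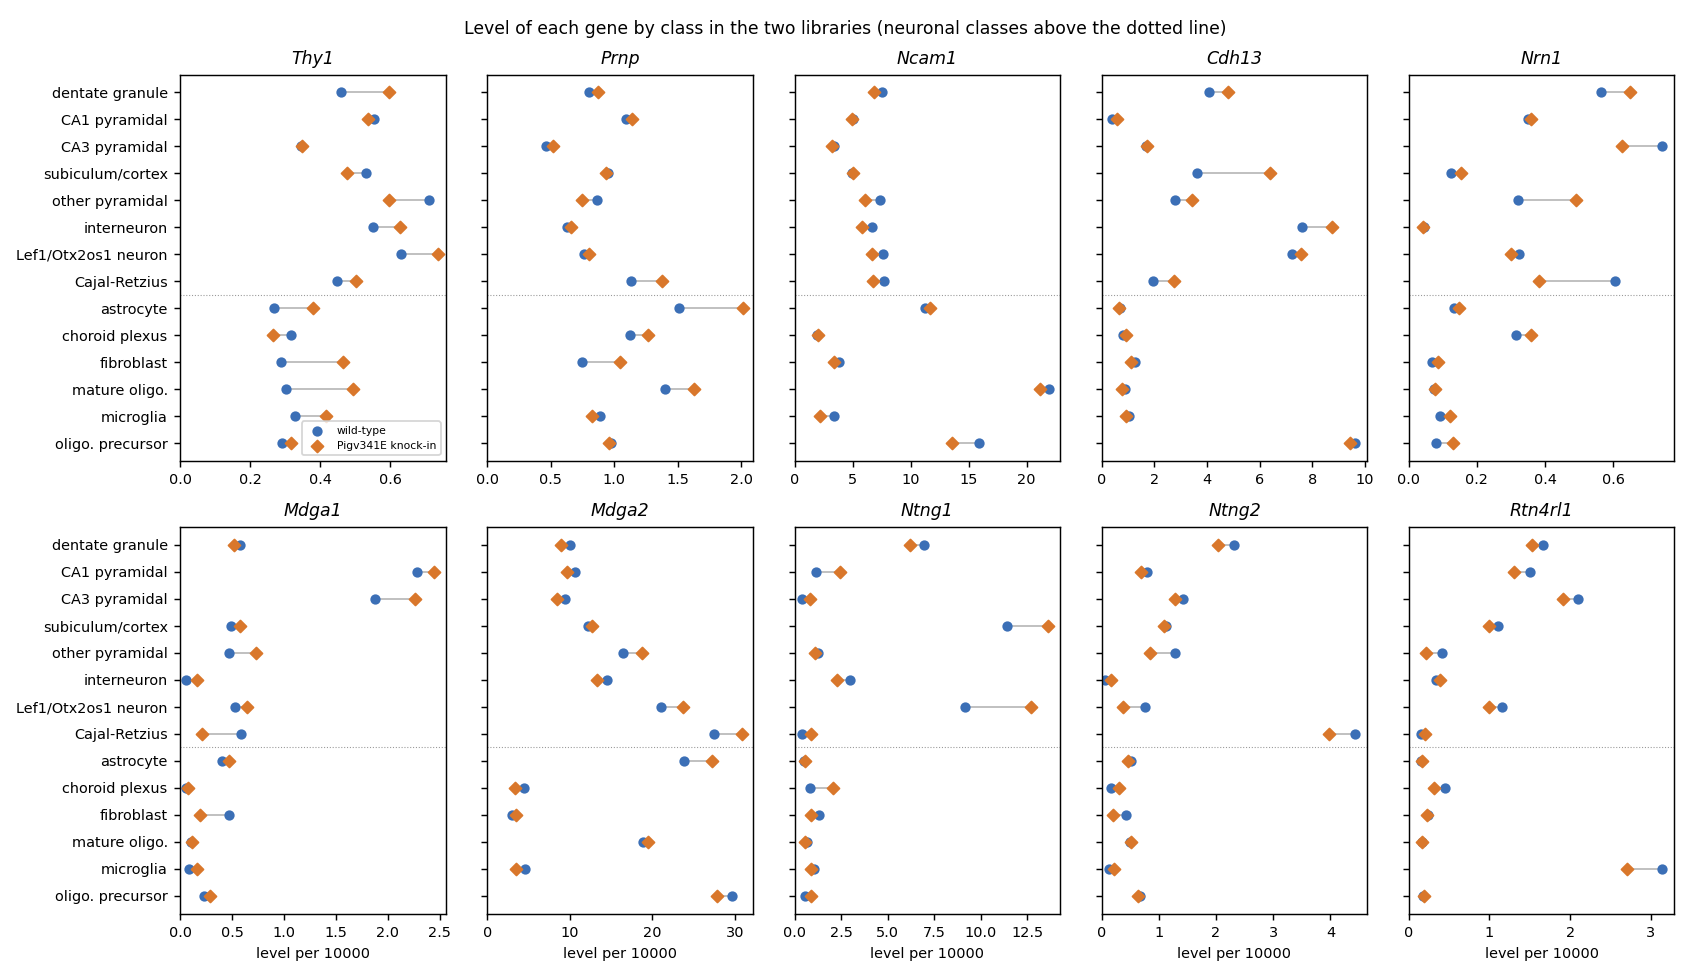
Level of each of the 10 genes (per 10000, own linear axis from 0 for each gene) in the 14 marker-named classes, with circles for the wild-type and diamonds for the knock-in library; neuronal classes stand above the dotted line. Ncam1 peaks in mature oligodendrocytes (21.9 and 21.1), Cdh13 in oligodendrocyte precursors (9.62 and 9.41), and Ntng1 in subiculum or cortex neurons (11.4 and 13.6).

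Ncam1 encodes the neural cell adhesion molecule, an immunoglobulin-type protein that joins cells through binding of like molecules and whose GPI-anchored isoform is known mainly from glia. Its level in mature oligodendrocytes was 21.9 in wild-type and 21.1 in knock-in cells, and in oligodendrocyte precursors 15.9 and 13.5. Astrocytes followed with 11.2 and 11.7. Every neuronal class lay lower in both libraries, from 3.36 and 3.23 in CA3 pyramidal neurons up to 7.70 in wild-type Cajal-Retzius cells and 6.85 in knock-in dentate granule neurons. The ranges of the 2 libraries did not overlap between mature oligodendrocytes, precursors and astrocytes. All 4 clusters of mature oligodendrocytes were high, from 13.9 and 13.1 in the smallest (led by Cnksr3, Prom1 and Cldn14) to 22.7 and 22.3 in a cluster led by A330049N07Rik. The smallest cluster had 10 markers of mature oligodendrocytes and also 6 of newly formed oligodendrocytes. The lowest level was that of choroid plexus epithelial cells, 1.93 and 2.06.

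Cdh13 encodes T-cadherin, a cadherin that lacks the transmembrane and cytoplasmic parts of its family. In oligodendrocyte precursors its level was 9.62 and 9.41, and 98.1% (exact 95% interval 95.2 to 99.5) of wild-type and 99.0% (97.1 to 99.8) of knock-in cells had a value above 0. Such intervals cover counting error only. Mature oligodendrocytes of the same lineage had 0.893 and 0.771. Among neurons, interneurons (7.61 and 8.73) and a neuron class led by Lef1 and Otx2os1 (7.24 and 7.58) were highest, dentate granule neurons had 4.09 and 4.81, and CA1 pyramidal neurons were the lowest of all 14 classes with 0.383 and 0.592. The range from the lowest to the highest class was 25.1-fold in wild-type and 15.9-fold in knock-in cells, and neighbours in the order overlapped between libraries in only 2 of 13 cases. Within interneurons, the 104 and 191 cells led by Kcnmb2 and Nxph1 had 10.3 and 10.3, whereas the 50 and 63 cells led by Dlx6os1 and Vip had 1.70 and 3.93. Over 12 unnamed clusters together the level was 2.41 and 5.39. One of these, led by Efna5 and Rgs6, had 36 wild-type and 365 knock-in cells, and its own Cdh13 level was 11.0 and 11.4.

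Thy1, the small immunoglobulin-type glycoprotein of neurons and T cells that binds integrins, had a low level in every class, from 0.267 in wild-type astrocytes and 0.266 in knock-in choroid plexus cells to 0.712 in wild-type other pyramidal neurons (pyramidal clusters that markers gave to no field) and 0.736 in knock-in Lef1/Otx2os1 neurons. All 13 pairs of neighbouring classes overlapped between libraries, so the order of its classes cannot be read beyond that spread. The share of cells above 0, which moves with the total of a cell, was read beside the same share with every cell thinned at random to a total of 1000. As deposited, in CA1 pyramidal neurons it was 44.4% (41.0 to 47.9) and 43.6% (40.4 to 46.8), against 11.9% (10.3 to 13.6) and 21.1% (19.1 to 23.3) in mature oligodendrocytes. In thinned cells CA1 had 5.98% and 3.93% and mature oligodendrocytes 2.76% and 4.37%, so the order of these classes held in wild-type cells and was reversed in knock-in cells. Without thinning, the 8 neuronal classes ranged from 27.9% (Cajal-Retzius cells, wild-type) to 50.2% (other pyramidal neurons, wild-type).

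Prnp encodes the cellular prion protein, a copper-binding surface glycoprotein. Its level was 1.51 and 2.02 in astrocytes and 1.40 and 1.63 in mature oligodendrocytes, and the ranges of these classes overlapped. Cajal-Retzius cells had 1.13 and 1.38, CA1 pyramidal neurons 1.09 and 1.14 and dentate granule neurons 0.803 and 0.873. CA3 pyramidal neurons were lowest in both libraries with 0.461 and 0.516. Within mature oligodendrocytes the cluster led by Cryab, Mal and Cnp had 2.82 and 2.20, the highest of the 4. CA1 and CA3 pyramidal neurons thus differed by more than the libraries did.

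Mdga1 and Mdga2 encode Ig-type surface proteins that bind neuroligins on the same cell and limit their binding to neurexins. Mdga1 was highest in CA1 (2.28 and 2.44) and CA3 (1.88 and 2.26) pyramidal neurons. The other pyramidal classes were not high: other pyramidal neurons had 0.469 and 0.727, and subiculum or cortex neurons 0.490 and 0.572. A value above 0 was present in 77.3% (74.3 to 80.1) and 76.6% (73.8 to 79.2) of CA1 cells. The highest level elsewhere was 0.727, in knock-in other pyramidal neurons. Dentate granule neurons had 0.571 and 0.520, and interneurons had 0.0590 and 0.159. The CA1 and CA3 ranges did not overlap, and both lay above every other class.

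Mdga2 had another distribution. Its level was 27.4 and 30.8 in Cajal-Retzius cells, 29.6 and 27.8 in oligodendrocyte precursors and 23.8 and 27.2 in astrocytes. Lef1/Otx2os1 neurons had 21.0 and 23.7, whereas the classes in which Mdga1 was highest, CA1 and CA3, had 10.6 and 9.66 and 9.46 and 8.40. In the neuronal, astrocyte and oligodendrocyte-lineage classes, 98.5% to 100% of cells were above 0. Fibroblasts (2.97 and 3.41), microglia (4.53 and 3.42) and choroid plexus cells (4.38 and 3.34) were lowest. Across the 14 classes the correlation of the mean log2 levels of the pair was r = 0.14, a description over classes that share their libraries.

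Ntng1 and Ntng2 encode the netrin-Gs, GPI-anchored relatives of netrins that sit on axons and bind the postsynaptic netrin-G ligands Lrrc4c and Lrrc4. Ntng1 was highest in subiculum or cortex neurons, 11.4 and 13.6, followed by Lef1/Otx2os1 neurons, 9.14 and 12.7, and the ranges of these classes overlapped. Dentate granule neurons had 6.98 and 6.20. CA1 (1.17 and 2.46) and CA3 (0.401 and 0.852) were far lower. A small unnamed cluster led by 9330185C12Rik, AC060761.1 and Plch1 had a higher level than any named class, 30.8 and 35.7, in 21 wild-type and 45 knock-in cells. Interneurons averaged 2.98 and 2.28, but few cells carried this: the top 15 of 154 wild-type cells held 94.1% of the sum and the top 25 of 254 knock-in cells 90.1%. The cells led by Dlx6os1 and Vip had 8.64 and 5.93 and those led by Kcnmb2 and Nxph1 0.364 and 1.11, the reverse of the order seen for Cdh13.

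Ntng2 was highest in Cajal-Retzius cells, 4.43 and 3.97, with 83.6% (71.9 to 91.8) and 83.3% (74.3 to 90.2) of cells above 0. Dentate granule neurons had 2.31 and 2.03 and CA3 pyramidal neurons 1.43 and 1.29. Interneurons were lowest with 0.0656 and 0.171. The levels of Ntng1 and Ntng2 across classes were nearly unrelated (r = 0.07 over 14 classes).

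Counting cells with a value of 2 or more shows how the netrin-Gs divide. In dentate granule neurons 49.8% of wild-type and 46.7% of knock-in cells had both. In subiculum or cortex neurons 63.2% and 64.0% had Ntng1 alone, and 2.34% and 2.07% had Ntng2 alone. Cajal-Retzius cells showed the opposite, with 65.6% and 66.7% having Ntng2 alone and 3.28% and 2.08% Ntng1 alone. CA3 leaned to Ntng2 alone (35.0% and 29.5%). In CA1 the balance was not the same in the 2 libraries: Ntng1 alone was present in 15.6% and 28.2% of cells and Ntng2 alone in 15.8% and 6.21%.

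**Figure D2:**
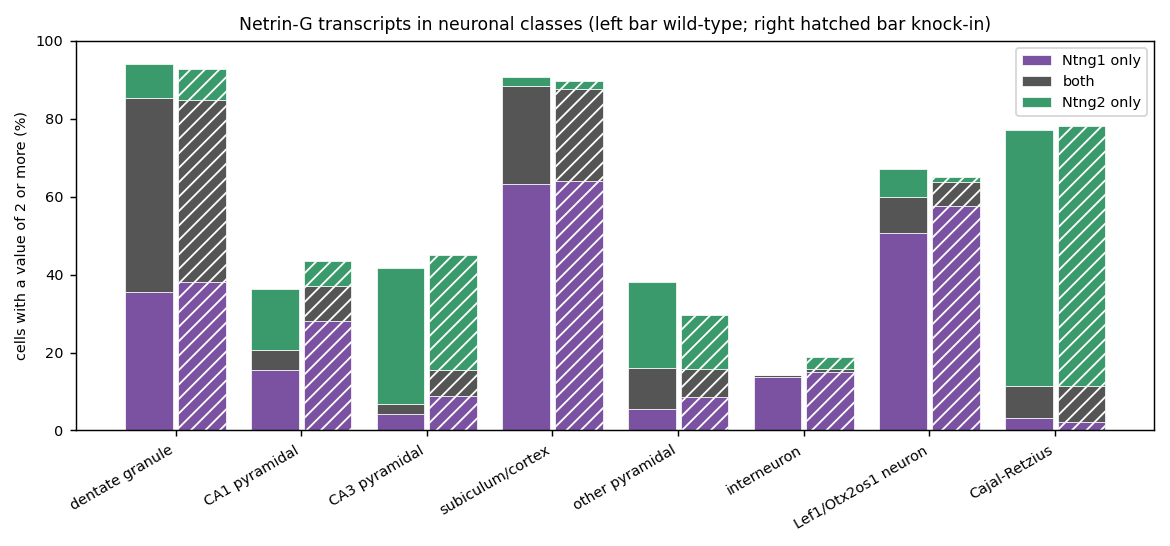
Share of cells (%) of the 8 neuronal classes with a value of 2 or more for Ntng1 only, both netrin-Gs or Ntng2 only, as stacked bars from 0, wild-type on the left and knock-in hatched on the right. Dentate granule neurons hold the most cells with both (49.8% and 46.7%), and Cajal-Retzius cells the most with Ntng2 only (65.6% and 66.7%).

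Rtn4rl1 encodes a relative of the Nogo receptor that binds chondroitin sulfate proteoglycans. Microglia had the highest level, 3.14 and 2.70, ahead of CA3 pyramidal neurons, 2.10 and 1.92, with no overlap between libraries. Of the 3 microglia clusters, that led by P2ry12, Cx3cr1 and Selplg had 3.84 and 3.04 and that led by Arhgap45, Inpp5d and Runx1 had 3.60 and 2.88. In the third, led by Cst3 and Tyrobp, it was 1.12 and 0.483. In the P2ry12 cluster the levels of Ncam1 (0.940 and 0.960) and Mdga2 (1.34 and 1.86) were far below their levels in neurons, while Rtn4rl1 was above its level in every neuronal class. Dentate granule (1.66 and 1.52) and CA1 neurons (1.5 and 1.30) came next, and astrocytes (0.147 and 0.169) and mature oligodendrocytes (0.161 and 0.161) were near the bottom.

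Nrn1 encodes neuritin, a small secreted or GPI-anchored protein that promotes neurite growth. It was above 0 in 47.2% (41.6 to 53.0) and 46.2% (41.0 to 51.5) of CA3 and in 41.5% (38.9 to 44.1) and 47.5% (44.9 to 50.1) of dentate granule neurons. Its level there was 0.744 and 0.626, and 0.564 and 0.648. Interneurons, at 0.0459 and 0.0428, had the lowest level of all classes, and subiculum or cortex neurons had 0.124 and 0.154. Glial classes lay between 0.0728 and 0.146.

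Because transcripts of damaged neurons can reach droplets of other cells, the levels outside neurons were set beside those of 8 neuronal genes (Slc17a7, Snap25, Syt1, Rbfox3, Camk2a, Grin2b, Nrgn and Meg3) measured in the same way. As a percent of the level in CA1 pyramidal neurons, the medians of these 8 genes in the 6 other classes ranged from 17.3% to 32.4%, and the highest single value was 61.2% (Snap25 in knock-in oligodendrocyte precursors). Of the 12 combinations of class and library, Prnp was above the highest neuronal gene in 12, Ncam1 in 10, Thy1 in 9, Ntng2 in 8, Mdga2 and Ntng1 in 6 each, Nrn1 in 4 and Rtn4rl1 in 2. Cdh13 was above it in 12, but CA1 is its lowest class. CA1 also had little Ntng1 (1.17 and 2.46, against 11.4 and 13.6 in its highest class) and Ntng2 (0.792 and 0.694, against 4.43 and 3.97), and a low CA1 level raises these percents. The same holds for Mdga2 (10.6 and 9.66, against 27.4 and 30.8 in Cajal-Retzius cells). It holds to a smaller extent for Ncam1 (5.07 and 4.92, against 7.70 and 6.77 there) and Nrn1 (0.348 and 0.360, against 0.744 and 0.626 in CA3). Mdga1 was above it in none. Ncam1 in mature oligodendrocytes reached 432% and 429% of its CA1 level and Rtn4rl1 in microglia 209% and 207%. Thy1 in mature oligodendrocytes was at 54.7% and 91.9%, against a highest neuronal gene of 53.6% and 51.3%. Astrocytes had Mdga1 at 17.5% and 19.4% and Rtn4rl1 at 9.78% and 13%, within or below the range of the neuronal genes there. The part of free RNA in the values was not tested.

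**Figure D3:**
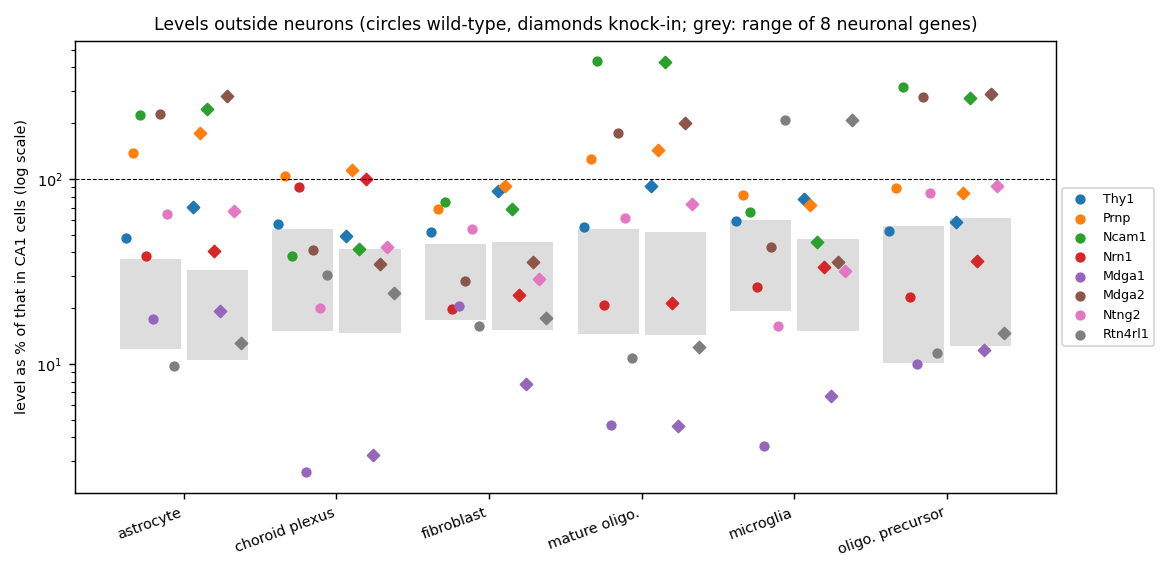
Level in each class other than neurons as a percent of the CA1 level (log axis, dashed line at 100%), circles wild-type and diamonds knock-in, with a grey box for the range of 8 neuronal genes; Cdh13 and Ntng1, which are low in CA1, are not drawn. Among the genes drawn, CA1 is the highest neuronal class of Mdga1 only. Ncam1 in mature oligodendrocytes (432% and 429%) and Rtn4rl1 in microglia (209% and 207%) lie above the boxes, and Mdga1 lies below the upper edge of every box.

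Between the libraries no member differed by 2-fold over all cells. Ncam1 had 9.83 and 8.53, Mdga2 13.6 and 13.4, Cdh13 2.36 and 3.13, Ntng1 2.79 and 3.07, Rtn4rl1 1.11 and 0.976, Ntng2 1.06 and 0.970 and Prnp 1.03 and 1.11. Mdga1 (0.678 and 0.728), Thy1 (0.432 and 0.511) and Nrn1 (0.299 and 0.319) did not reach 1 per 10000. With 0.1 added to each level, the log2 ratio of knock-in over wild-type ranged from -0.20 (Ncam1) to 0.39 (Cdh13). Of all 10 members, 6 were higher and 4 lower, and the median was 0.08. Among the 7 that reached 1 per 10000 in a library, the middle ratio was that of Mdga2, -0.01. The median over 2075 genes at or above 1 per 10000 was -0.08, and their 10th to 90th percentile was -0.22 to 0.14. Cdh13 lay above that span, as did Thy1 (0.20), which did not reach the minimum level. A size rule was used to describe ratios: at least 2-fold on that scale, with at least 1 per 10000 and 10% of cells above 0 in 1 library. Over all cells 0.289% of genes were past it, and none of the 7 members that met the limits was. Cdh13 had a ratio of 0.24 without the cluster led by Efna5 and Rgs6. It was 0.15 with each cluster given the same weight in both libraries, its pooled number of cells.

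Across the 14 classes, 66 of the 140 values of a member in a class met the limits, and 2 of these were past 2-fold, against 0.799% of all 28669 gene-by-class values. Both were Ntng1 and both were higher in the knock-in library. At 1.5-fold the count was 3 of 66, the third being Cdh13 in subiculum or cortex neurons, against 3.86% of all values. A ratio of this kind carries no error rate.

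**Figure D4:**
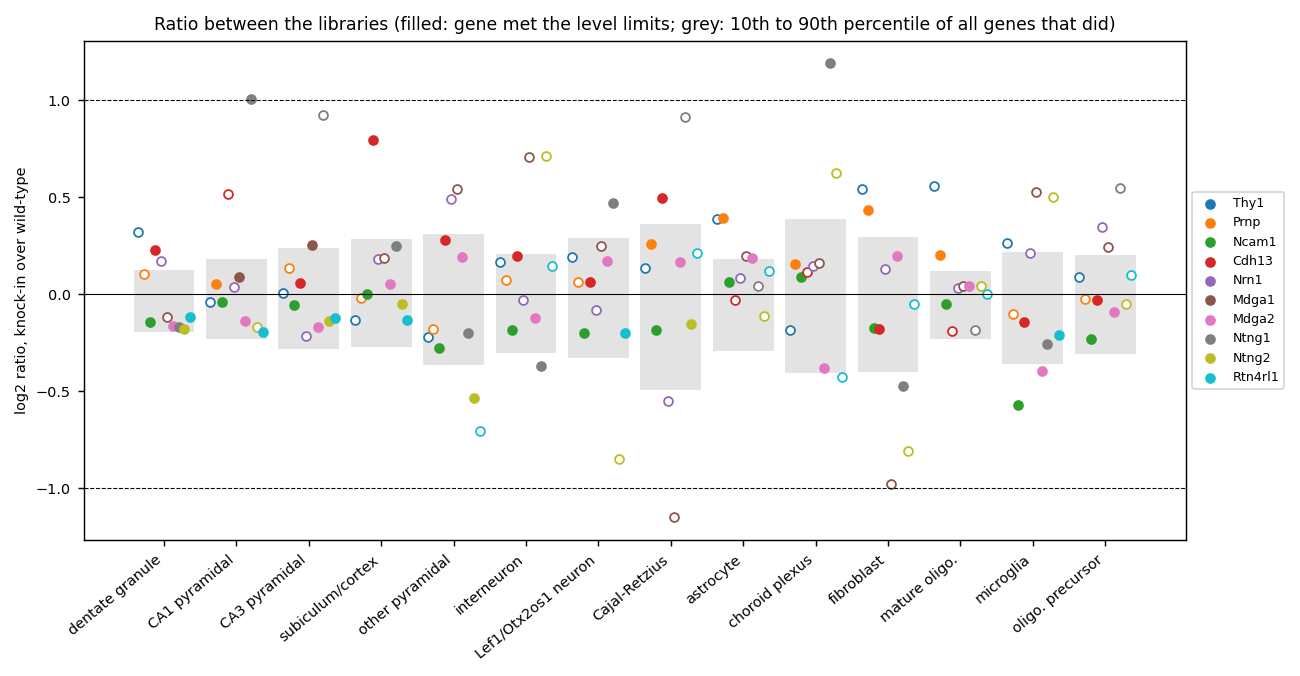
Log2 ratio of knock-in over wild-type level (0.1 per 10000 added) for each gene in each class; filled symbols met the limits of level and share, the grey boxes span the 10th to 90th percentile of all genes that did, and dashed lines mark 2-fold. Ntng1 in CA1 (1.01) and in choroid plexus cells (1.19) are the filled symbols past 2-fold.

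In CA1 pyramidal neurons the Ntng1 level was 1.17 in 819 wild-type and 2.46 in 966 knock-in cells, a log2 ratio of 1.01 in a class where 0.744% of genes were past 2-fold. A value above 0 was found in 34.7% (31.4 to 38) and 50.8% (47.6 to 54.0) of cells, and a value of 5 or more in 6.96% (5.31 to 8.92) and 18.4% (16 to 21.0). The cells fell into 4 finer groups at Leiden resolution 2. The group led by Pde11a had Ntng1 at 3.49 and 5.37 and held 23.4% and 35.2% of the CA1 cells. In the group of 283 and 187 cells led by 4921539H07Rik, Gm30382 and Stac the level was 0.400 and 0.625, and it held 34.6% and 19.4% of cells. In that of 329 and 403 cells led by 4921539H07Rik and Galntl6 it was 0.467 and 0.869. A group of 15 and 36 cells, led by the microglial gene P2ry12, had 1.59 and 2.12 and held 1.83% and 3.73% of the class, and the part of such cells in the difference was not tested. Ntng1 was thus higher in knock-in cells within each of the 4 groups, and the group richest in Ntng1 was also a larger share of the class. With each group given the same weight in both libraries, its pooled number of cells, the ratio was 0.62 and not past 2-fold. It was 0.67 with 1 per 10000 added to each level, 0.83 with the members among the clustering genes and 0.81 at resolution 2. Of the other members in CA1, Cdh13 had a log2 ratio of 0.52 below the limits, and the remaining 8 lay between -0.19 and 0.09.

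**Figure D5:**
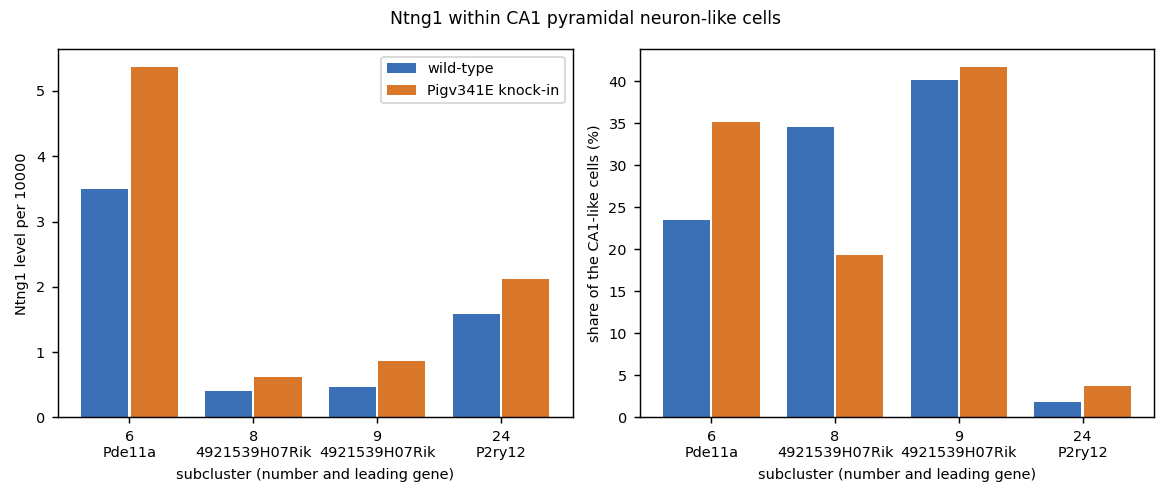
Ntng1 level per 10000 (left) and share of the CA1 cells in % (right) for the 4 finer groups of CA1 pyramidal neuron-like cells, labelled by group number and leading gene, as bars from 0 for the wild-type and knock-in libraries. The group led by Pde11a has the highest level (3.49 and 5.37) and a larger share of the knock-in cells (23.4% and 35.2%).

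CA3 pyramidal neurons showed the same direction at a lower level, 0.401 and 0.852 (log2 ratio 0.93), which did not meet the limits. Values above 0 were found in 20.4% (16 to 25.3) and 29.5% (24.9 to 34.5) of these cells. In the classes in which Ntng1 was most abundant, the ratio was -0.17 in dentate granule neurons, 0.25 in subiculum or cortex neurons and 0.47 in Lef1/Otx2os1 neurons. Whether these ratios differ from that of CA1 was not tested. In choroid plexus epithelial cells, where 1.21% of genes were past 2-fold, the level was 0.848 in 59 wild-type and 2.06 in 68 knock-in cells (1.19), and the limits were met through the knock-in library alone. The top 6 of the 68 knock-in cells held 82.6% of its sum, with a highest value of 38 against 5 in wild-type cells, while the share of cells above 0 was 49.2% (35.9 to 62.5) and 38.2% (26.7 to 50.8). The median total of a cell there was 7612 and 10176. With cells thinned at random to 1000, the ratio was -0.19.

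Cdh13 in subiculum or cortex neurons was 3.63 in 171 wild-type and 6.38 in 242 knock-in cells (log2 ratio 0.80, in a class where 3.72% of genes were past 1.5-fold), with values above 0 in 43.9% (36.3 to 51.6) and 60.7% (54.3 to 66.9). The finer group led by Gm42705 and Fras1 had 8.70 and 11.8 and held 31.6% and 43.8% of the class. That led by Gm42705 and Fn1 had 1.21 and 1.81 and held 53.8% and 41.7%. With each finer group given the same weight in both libraries, its pooled number of cells, the ratio was 0.46. Over the 14 classes, knock-in Cdh13 was the higher in 9 and the lower in 5. Counted from the median ratio of the genes that met the limits in each class, these numbers were 11 and 3.

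Ncam1 was lower in the knock-in library in 11 of 14 classes, with ratios from -0.57 to 0.09. The largest difference was in microglia, 3.36 and 2.23, where Mdga2 (4.53 and 3.42) was lower too. All 8 neuronal genes set beside the members above were also lower in knock-in microglia, with ratios from -0.44 (Rbfox3) to -0.04 (Nrgn), and their part in the result was not tested. The P2ry12 microglia cluster had 0.940 and 0.960 of Ncam1, that led by Arhgap45 3.85 and 3.35 and that led by Cst3 7.31 and 4.94. The wild-type library had 254, 227 and 165 cells in these clusters and the knock-in library 412, 326 and 112. With each cluster given the same weight in both libraries, its pooled number of cells, the ratio was -0.30. Of the genes that met the limits, between 27.0% and 46.8% were higher in the knock-in library over the 14 classes. A lower value was thus the more common direction among these genes. Counted from their median ratio in each class, Ncam1 was lower in 9 classes and higher in 5.

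Rtn4rl1 and Ntng2 were each lower in 10 of 14 classes, and Thy1, Prnp and Nrn1 higher in 10 and Mdga1 in 11, mostly at levels where the limits were not met. Counted from the class median, Rtn4rl1 was lower in 8 and Ntng2 in 9, and Thy1 and Nrn1 were higher in 11, Prnp in 12 and Mdga1 in 11. That median covers only genes that met the limits, which Thy1 and Nrn1 did in 0 classes and Mdga1 in 2. It was below 0 in all 14 classes, from -0.10 in microglia to -0.03 in choroid plexus cells. Of the partner genes described below that met the limits in 0 classes, Ngfr and St8sia4 were above it in 13, and Rtn4rl2 and Stip1 in only 5 and 3. These counts thus do not set low-level members apart. Prnp in astrocytes, 1.51 and 2.02 (0.39), and in fibroblasts, 0.748 and 1.04 (0.43), met the limits and stayed under 1.5-fold. Thy1 in mature oligodendrocytes, 0.304 and 0.495 (0.56), did not meet them. Mdga1 in Cajal-Retzius cells was 0.585 and 0.209 in 61 and 96 cells, a ratio of -1.15 that lay below the minimum level.

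Of 28 known partners, relatives and modifying enzymes of the members, 25 were in the table, and Nlgn3, Prnd and Nrn1l were not analysed here. None of the 94 values that met the limits was past 2-fold, against 0.799% of all genes over the 14 classes. Among the neuroligins bound by the Mdga proteins, Nlgn1 had its highest level in oligodendrocyte precursors, 65.8 and 57.3, where Mdga2 was also high. It was lower in the knock-in library in 14 of 14 classes, by little in most: the ratios ran from -0.55 in microglia to -0.0038 in subiculum or cortex neurons. Counted from the class median it was lower in 9 and higher in 5. Nlgn2 stayed between 0.0728 and 0.468 in every class and library.

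The netrin-G ligands were highest in other classes than their partners. Lrrc4c, the ligand of Ntng1, had 71.5 and 69.9 in oligodendrocyte precursors and 39.1 and 24.9 in other pyramidal neurons (-0.65), its largest difference between libraries. The 3 clusters of that class differed in their cells from each library: 104 wild-type and 224 knock-in cells in the cluster led by Gm28928 and Cdh18, 112 and 83 in that led by AC060761.1, and 59 and 43 in that led by Rxfp1. The part of this makeup in the difference was not tested. In the subiculum or cortex neurons, where Ntng1 was highest, it had 10.9 and 12.1, and over the 14 classes Ntng1 and Lrrc4c had r = -0.02. Lrrc4, the ligand of Ntng2, met the limits in no class. Dentate granule neurons, with 0.204 and 0.227, were its highest class in wild-type cells, and interneurons, with 0.197 and 0.253, in knock-in cells. Ntng2 and Lrrc4 had r = 0.25. Lrrc4b, a relative of both ligands, was between 0.127 and 1.23 and met the limits in 2 classes.

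Further partners are named after their values were seen. Ncam2, the relative of Ncam1, was highest in oligodendrocyte precursors (17.4 and 17.1) and mature oligodendrocytes (17.2 and 16.4), and over classes Ncam1 and Ncam2 had r = 0.84. It was lower in the knock-in library in 12 of 14 classes (9 counted from the class median), with 2.81 and 1.84 in microglia (-0.59). Rtn4, which encodes Nogo, was highest in mature oligodendrocytes, 17.7 and 15.5, and Mag, another myelin ligand of Nogo receptors, reached 11.1 and 11.0 there. Rtn4rl1 and Rtn4 had r = -0.33. Of the other receptors of that family, Rtn4r was highest in CA3 pyramidal neurons, 0.253 and 0.243. Rtn4rl2 was highest in subiculum or cortex neurons in wild-type cells, 0.336 and 0.200, and its highest knock-in level was 0.218 in another class. The integrin subunits Itgb5 and Itgam were highest in microglia, with 8.92 and 9.53 and with 4.02 and 4.18.

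The genes whose levels across the 14 classes were most like those of each member were taken from 5047 genes with at least 1 per 10000 in a class, by Pearson r of log2 levels averaged over the libraries. For Mdga2 these were Ctnna2 (r = 0.96), Sycp2 and Pcdh11x, and for Ncam1 they were Txndc16 (0.93), Ccdc88a and Mpzl1. Cdh13 was most like Mgat5b (0.92), Lrrtm4 and Kcnd3, and Rtn4rl1 most like Epn1 (0.92), Hspa4 and Ptpn1. Mdga1 was most like Hpca (0.91), which encodes the hippocampal calcium sensor hippocalcin, Arhgef25 and Ppm1e. Ntng1 was most like Cntnap5a (0.89), Cntnap5b and Fras1, and Ntng2 like Eml5 (0.86) and Baiap2. Prnp had the weakest likeness, Csrp1 (0.80), Scd2 and Ugp2. Thy1 and Nrn1 did not reach 1 per 10000 in any class and were not compared. The points share libraries and classes, and these values are descriptions.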

How the data were processed

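The members, gene lists and tests were chosen with earlier results of these data known. The authors deposited 1 table of 30223 genes by 15930 cells, of which cell names give the genotype. Its values are whole numbers with totals between 4846 and 14501 per cell, a band narrower than raw counts give, and were treated as a score: the authors' deposited values are depth-corrected and rounded, so no count model was fitted. Per the submitters' processing notes, Seurat 3.0.0 and GRCm38 were used. The aligner, the annotation and the filter on cells are not given in the sources used here.

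Cells were clustered without the members in Python 3.11.15 with scanpy 1.11.5 and igraph 0.11.9: scaling to 10000, log, 2000 variable genes, 30 principal components, 15 neighbours and Leiden resolution 1, with no batch correction. A name needed 3 markers, each above 0 in 25% or more of the cluster and 1.5-fold or more over the other cells. This naming rule was made with the clusters in view, as were its exceptions. Granule neurons may share general pyramidal markers, neighbouring oligodendrocyte stages may share markers, and so may microglia and macrophages. The cluster led by Lef1 and Otx2os1 was kept apart from interneurons although it had interneuron markers. Pyramidal clusters of no field were called "other pyramidal". Outside these exceptions, a cluster stayed unnamed where another class had more markers among its 10 leading genes or 60% of as many in all. It also stayed unnamed where 3 leading genes were mitochondrially encoded, and 12 of 36 were left unnamed. Without the oligodendrocyte exception, the precursor cluster (8 markers, and 5 of newly formed oligodendrocytes) would be unnamed. So would the cluster led by Cnksr3 (10 of mature and 6 of newly formed oligodendrocytes). Doublets were kept: Scrublet, set to expect 6%, marked 0.86% of wild-type cells (61) and 2.365% of knock-in cells (209), and an alternative dropped these 270.

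Genes named are the 10 members, the partners past the size rule (none), the direct binding partners Nlgn1, Nlgn2, Lrrc4, Lrrc4c and Lrrc4b, and the 3 genes most like each member, of which 1 is not reported here; other partners are marked as named later. CA1 pyramidal neurons served as the reference for levels outside neurons. Shares have exact Clopper-Pearson 95% intervals. The ratio and size rule were run on simulated sums over all wild-type cells, with genes changed by far more than 2-fold. This checks the calculation only, since it held no small classes, ratios near 2-fold or differences between libraries. A table of protein sequences was not used here.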

Additional observations from a re-analysis of the deposited data

How the results depend on the processing

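No paired analysis was possible because each genotype is 1 library, and no replicate could be left out. Of 16 alternative settings, 14 were planned and 2 were added after seeing the data. These 2 were the same weights for finer subclusters in both libraries, and leaving out the barcodes found in both libraries. The count of member values past 2-fold, 2 as reported, was 0 with 1 per 10000 added to each level and 0 with the members among the clustering genes. It was 1 with the same cluster weights in both libraries, 1 at Leiden resolution 2 and 1 with the same subcluster weights. With cells thinned to 1000 it was 5. These weights were the pooled numbers of cells, with clusters of few cells in a library left out. In the thinned cells the further values were Thy1 in Cajal-Retzius cells, Ntng2 in Lef1/Otx2os1 and in subiculum or cortex neurons and Prnp in fibroblasts, and Ntng1 in choroid plexus cells was reversed, at -0.19. The count of partner values, 0 as reported, was 2 at 1.5-fold, 1 with no minimum level or share and 3 with cells thinned to 1000. Beyond what each setting changes by its construction, the cause was not tested. The median log2 ratio of the members over all cells lay between 0.03 and 0.16. Of 2090 ratios under the alternatives, 2049 moved by less than 1.5-fold, 40 by more, and 1 reversed after passing the rule. Changes of sign in ratios not past the rule are outside that count, and they occurred. Thy1 in CA3 kept its sign in 8 of 14 settings and Ncam1 in subiculum or cortex neurons in 9 of 14, while Ntng1 in CA1 kept it in 14 of 14. The counts of classes higher or lower given above include such small ratios. The highest class of a member stayed first in 104 of 109 cases. The exceptions were Nrn1 and Mdga2 in thinned cells, Mdga2 without called doublets, and Thy1 and Mdga1 at resolution 2. With 15 principal components the Lef1/Otx2os1 class was not found, so it has no value there. The depth of sequencing is unknown, and thinning does not recover it.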

Other observations

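Several of the highest levels of the members lay in clusters that markers did not name, which are part of the values over all cells but of none of the 14 classes. A cluster led by Gm32647, Trpc7 and Cpne9, with 24 wild-type and 20 knock-in cells, had Cdh13 at 10.8 and 13.4 per 10000 and Nrn1 at 0.869 and 0.993, the latter above every named class in both libraries. Its Mdga1 level was 2.07 and 1.34. In a cluster of 39 and 91 cells led by Vwc2l, Tshz2 and Unc13c, Ntng2 was 3.14 and 3.42. In the cluster of 36 and 365 cells led by Efna5 and Rgs6, Ntng2 was 3.48 and 2.27 and Ntng1 was 6.62 and 4.13. A cluster of 281 and 267 cells led by Igfbpl1 and mitochondrially encoded ribosomal RNAs had Thy1 at 0.847 and 0.959 and Prnp at 1.62 and 1.71.

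Among the pyramidal clusters assigned to no field, Ntng1 and Cdh13 differed by cluster. The cluster led by Rxfp1, Tshz2 and Unc5d had Ntng1 at 4.73 and 5.27 and Cdh13 at 5.89 and 5.85 in 59 and 43 cells. That led by Gm28928, Cdh18 and Rai14 had Ntng1 at 0.232 and 0.217 and Cdh13 at 3.89 and 4.13 in 104 and 224 cells. That led by AC060761.1, Sgcz and Pdzrn3 had Cdh13 at 0.198 and 0.311, and its Ntng1 level was 0.442 and 1.30 in 112 and 83 cells.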
